A study of Mus musculus with 4 samples.

Results

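The 1 h array of this series set RNA from the CA1 field of the mouse hippocampus after contextual fear conditioning under MK-801 against RNA from mice that had the drug alone. It was 1 of 4 arrays, the others having been made at 2, 4 and 6 h. All genes with a measured ratio on it were taken, which gave 9162 genes of 10698 named on the array and of 10622 measured on any of the 4 arrays. A spot that read exactly 0 was taken as not measured, the median of the remaining spots was subtracted, and the spots of a gene were averaged. A set of choroid plexus genes is given here only beside other results.

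Both groups were young male C57BL/6J mice injected with MK-801 at a labelled dose of 300 micrograms per g, printed as the labels have it. The control group, MK, had the drug and no conditioning. The conditioned group, MK C+S, had the drug 1 h before training. Training was 2 min in a chamber that the mice had not seen, then a foot shock of 1 s at 0.5 mA, given for a total of 3 shocks, with return to the home cage 1 min after the last. RNA was taken 1 h after the last shock of the conditioned mice, in the control mice at that same time. Because both groups carried the drug, the array holds no mice trained without it and no untreated mice. The sources used here do not give the number of animals. Cyanine-3 (green) marked the control RNA and Cyanine-5 (red) the conditioned RNA, with no dye swap, so an effect of the dye and an effect of conditioning cannot be told apart. With 1 array there is no replicate, no value has an error between samples, and no test was made.

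NMDA receptors are glutamate-gated channels that let calcium into a neuron when it is active, and MK-801 blocks their open pore. In CA1 pyramidal neurons calcium entry switches on immediate early genes, a first set of transcription factors and effectors that needs no new protein, and later genes follow. Shock, handling and the drug itself act on stress hormone, chaperone and metabolic genes in the same tissue.

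A positive log ratio likely stands for more RNA in the conditioned group, since red is usually set over green, but the deposited values state neither their direction nor their log base. Base 10 was assumed, and 2-fold is then 0.301 log10 units. Only ratios were used, so the tissue could not be checked through the level of its marker genes. In such bulk RNA, fewer cells of a type and less RNA per cell cannot be told apart.

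Exact zeros made up 22.7% of the 16281 spots at 1 h, against 9.34% at 2 h and 7.39% at 4 h. Of the 1536 named genes without a value at 1 h, 1160 had one at all later times. The 1 h array was thus the one with the most missing values. Most genes rested on little: 7533 of the 9162 had 1 measured spot. The gene values lay in a narrow band, with quartiles of -0.094 and 0.0996 and a median of 0.0013.

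At 2-fold or more, 469 genes were positive (5.12% of those measured) and 307 were negative (3.35%), together 8.47%. The positive share of these was 60.4%, with an exact Clopper-Pearson 95% interval of 56.9% to 63.9% that covers counting error only. Above 0 lay 50.4% of all genes and below it 49.6%. That even split follows from the subtraction of the array's median. Past 2-fold the positive side held more genes while the negative side ran further out: 3 genes lay at or above 1, and 19 at or below -1. The positive share did not hold where a gene had more than 1 spot, as given with the spot comparison.

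**Figure D1:**
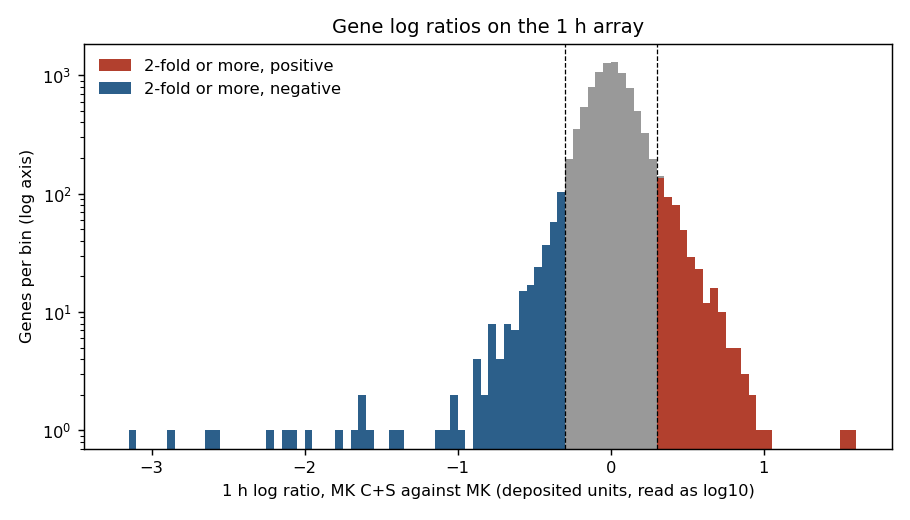
Number of genes (log axis) by 1 h log ratio, read as log10, for all 9162 measured genes; dashed lines mark 2-fold and colours the genes past it. The negative side reaches -3.11 and the positive side 1.57.

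The highest value on the array belonged to Cat, catalase, the peroxisomal enzyme that breaks down hydrogen peroxide. It stood at 1.57, or 37.4-fold if the base is 10. The same spot gave -0.19 at 2 h, -1.92 at 4 h and 0.60 at 6 h, on both sides of 0. Ecrg4, whose secreted product is known from choroid plexus, followed at 1.501. Sys1, a Golgi membrane protein, was at 1.05 and Krtap14, a hair keratin-associated protein, at 0.99. The next were the mu opioid receptor Oprm1 at 0.91, the adhesion receptor P-selectin, Selp, at 0.90 and the sodium channel Scn9a, which is best known from sensory neurons, at 0.90. The DNA repair glycosylase Mpg was at 0.89 and the linker histone H1f4 at 0.86. Tex12, a protein of meiotic chromosomes, the intestinal mucin Muc2 and the glucose transporter Slc2a2 of liver and pancreas were each at 0.85. Several of these genes are best known from tissues outside the brain. Each of the 12 rested on 1 spot.

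Later arrays gave smaller values for most of the 12. Sys1 stood at 0.17, 0.027 and 0.21 at 2, 4 and 6 h, Oprm1 at -0.13, -0.043 and -0.094, and Selp at 0.071, 0.26 and -0.093. Slc2a2 was near its 1 h value again at 6 h, at 0.70. Mpg stood at -0.20, -0.45 and -0.70, on the other side of 0 at every later time.

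The lowest value belonged to Sdc3, a heparan sulfate proteoglycan of neural membranes, at -3.11. The homeobox factor Lhx1 was at -2.89, Xist, which coats and silences the inactive X, at -2.63 in mice labelled male, and the sodium-calcium exchanger Slc8a3 at -2.58. The NF-kB inhibitor Nfkbib followed at -2.24, the peptidase Pgpep1 at -2.12, the Notch target Hes1 at -2.08 and 4930522H14Rik, a gene known by its clone name, at -1.9997. The kinase Map3k7, which relays cytokine signals to NF-kB, was at -1.79. The cytochrome P450 gene Cyp4b1 was at -1.70, the interleukin subunit Ebi3 at -1.62 and the bile acid transporter Slc10a2 at -1.61. These also rested on 1 spot each.

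Many of the lowest genes had no ratio on the next arrays. Of the 12 lowest, 6 were not measured at 2 h and 7 at 4 h, while all 12 highest were measured at both. Over all genes 3.54% were missing at 2 h. Among the 307 negative genes past 2-fold it was 34 (11.1%), and among the 469 positive ones 15 (3.2%). At or below -1 it was 9 of 19, or 47.4%. What part unmeasured spots have in these values was not tested.

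Where such genes did have later values, they were mostly below 0. Map3k7 was at -1.83 at 2 h and -1.85 at 6 h, nearly its 1 h value. Slc10a2 was at -1.98 at 2 h and -1.24 at 6 h, but at 0.12 at 4 h. Sdc3 was at -1.45 and Lhx1 at -0.91 at 6 h, the one later time with a value. Cyp4b1, at -0.022 and 0.058, lay close to 0 at 2 and 4 h.

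**Figure D2:**
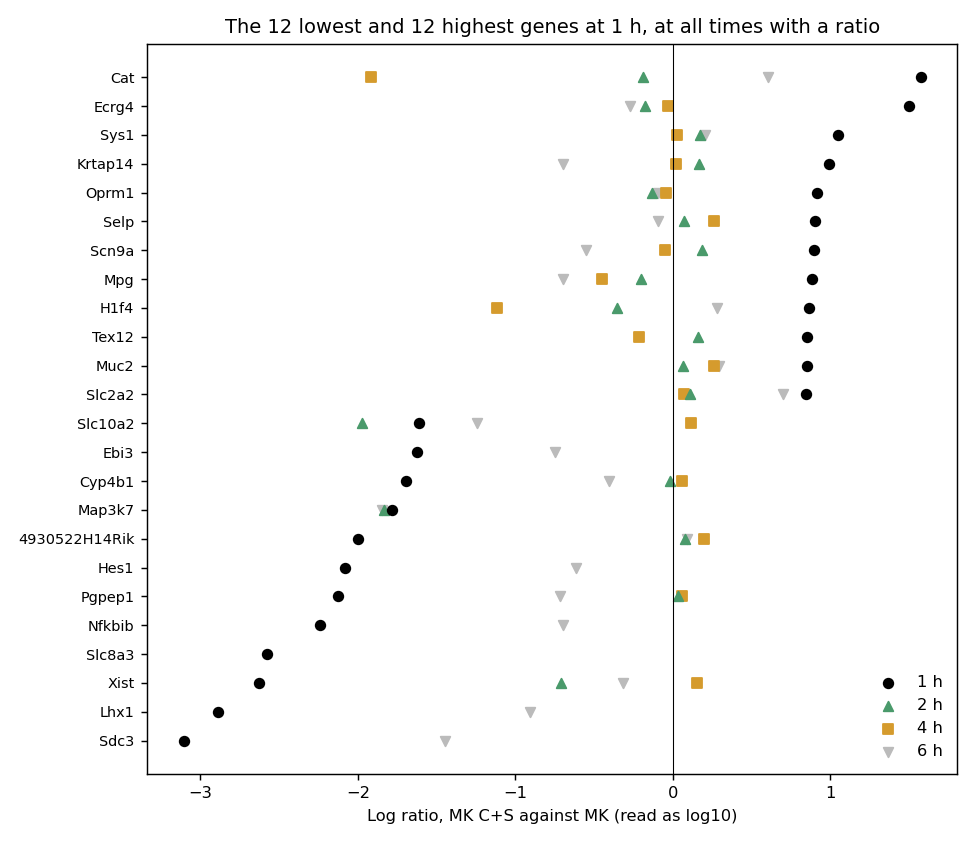
Log ratio (read as log10) of the 12 lowest and 12 highest genes at 1 h on each array; a missing symbol means no ratio at that time, and later values of Xist, Pgpep1 and 4930522H14Rik include a spot not measured at 1 h. Most later symbols of the highest genes sit near 0 or left of it, and 6 of the lowest genes have no symbol at 2 h.

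Genes with more than 1 spot allow the only check within the array. Of 1629 such genes, 829 (50.9%) had all their spots on one side of 0. Where at least 1 spot was past 2-fold it was 163 of 301 (54.2%). Spots of one accession did so in 122 of 228 genes (53.5%), and spots of different accessions in 707 of 1401 (50.5%). With 50.4% of all genes above 0, a pair of unrelated spots would lie on one side about as often. Of the 1629 genes 1485 had exactly 2 measured spots. The spots of a gene thus shared a sign little more often than unrelated spots would. Spots share the RNA and the array and are no replicates. By the mean of their spots, 30 of the 1629 genes were positive and 46 negative past 2-fold, a positive share of 39.5% against 60.4% over all genes.

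All spots lay past 2-fold the same way in 14 genes, 6 positive and 8 negative, and 8 further genes had spots past 2-fold on both sides. The negative ones were of mixed function, with genes of neuronal signalling and of protein folding among others. Arf5, a small GTPase of Golgi transport, had spots at -0.73 and -0.57. Hspa1b, an inducible heat shock protein of the Hsp70 family with a nearly identical neighbour gene, had spots at -0.36 and -0.88. Scn1a, a sodium channel subunit of axons, had spots at -0.56 and -0.36. Hpca, hippocalcin, a calcium sensor of high abundance in hippocampal pyramidal neurons, had spots at -0.40 and -0.49. Both spots of each of these 4 genes lay below 0 by more than 2-fold.

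The other negative genes were Ddit4l (mean -0.46), an inhibitor of mTOR signalling, the endoplasmic reticulum cochaperone Dnajb9 (-0.39), the class I antigen subunit B2m (-0.34) and Trim59 (-0.33). The positive ones were Mme (0.45), the enzyme neprilysin that cleaves neuropeptides, Igfbp2 (0.45), a binding protein of insulin-like growth factors, Ms4a4b (0.45), a membrane protein of lymphocytes, Slco1b2 (0.41), an organic anion transporter of liver, the antibody gene Igh-VS107 (0.41) and the lipid phosphatase Inppl1 (0.37). Arf5 was at -0.55 at 2 h and at 0.42 at 4 h. Hpca went from -0.44 at 1 h to -0.13, 0.40 and -0.34.

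**Figure D3:**
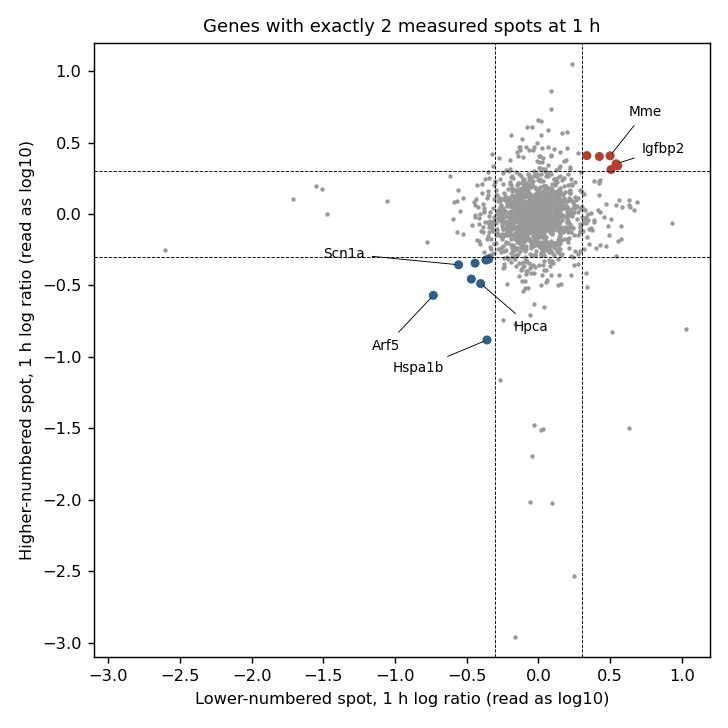
The 2 spots of each of 1485 genes with exactly 2 measured spots at 1 h, both axes as log ratios read as log10, with dashed lines at 2-fold. Coloured points lie past 2-fold on both axes, and most other points past 2-fold on one axis lie within it on the other.

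Genes were also read by 40 lists of known function or cell type. Medians lay below 0 in 28 lists and above 0 in 12, and with the settings that were tried 25 lists kept the sign of their median. The medians that turned sign or reached 0 under at least 1 setting were those of immediate early transcription factors, metabotropic receptors and scaffold, the GABA and glycine system, kinases and phosphatases, cytoskeleton, glycolysis, antioxidant enzymes, cytosolic ribosomal proteins, translation factors, proteasome, apoptosis, clock genes, and markers of CA1, microglia and ependyma. List medians at 1 h were small beside the spread of single genes, and each is given beside 50.4% of all genes above 0 and the median of all genes of 0.0013.

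**Figure D4:**
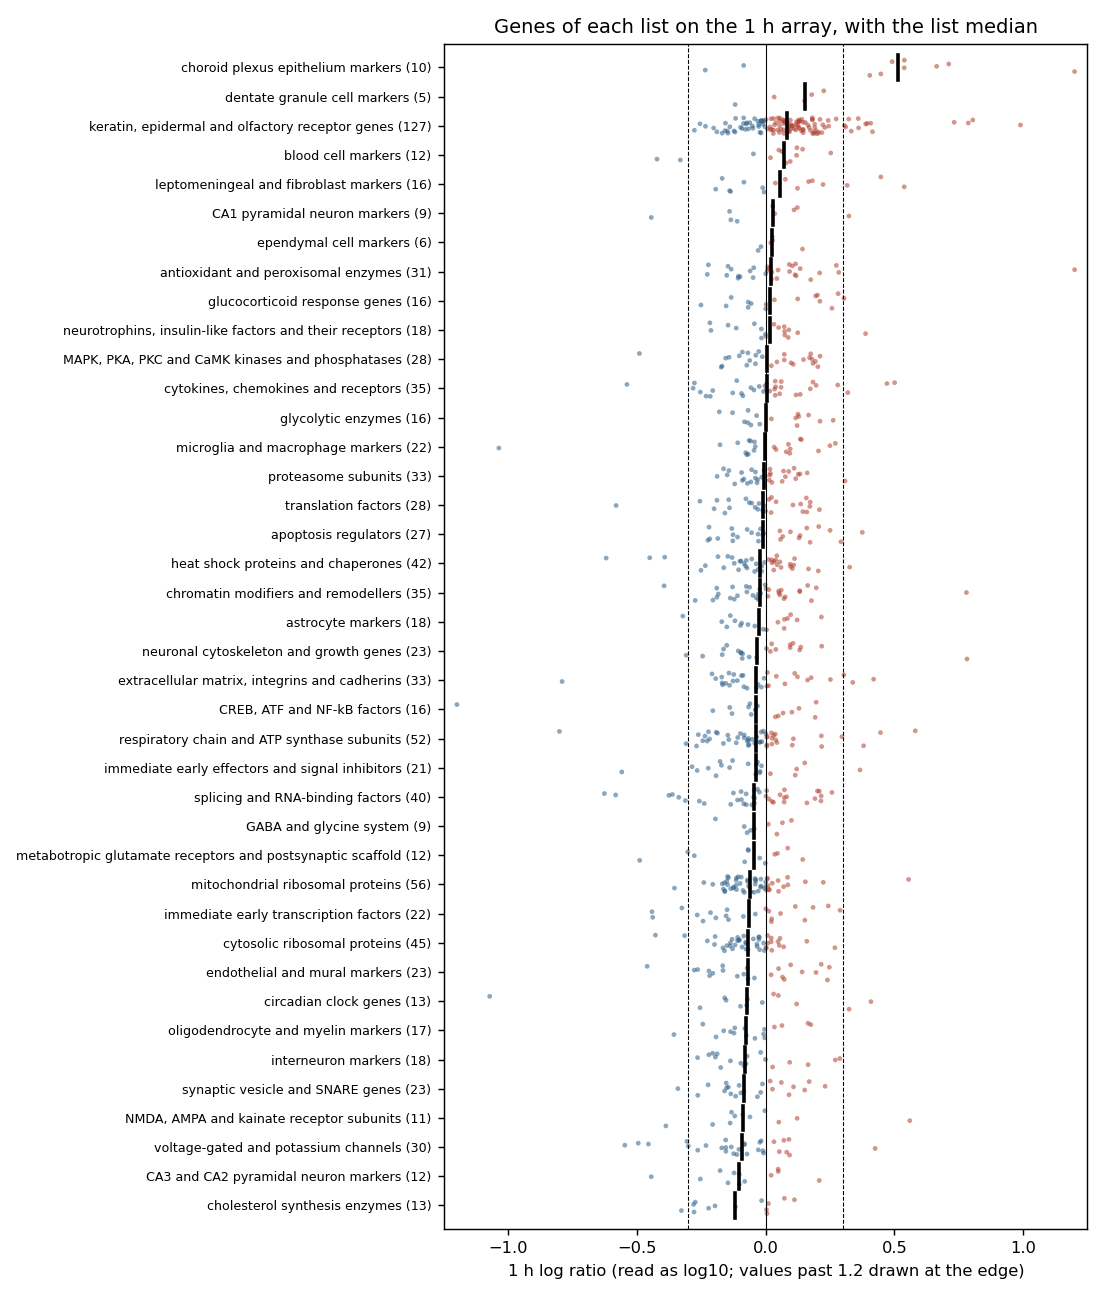
Each point is a gene of a list at 1 h (log ratio read as log10; points past 1.2 are drawn at the edge), black bars are list medians, brackets give the number measured, and dashed lines mark 2-fold. The choroid plexus median of 0.51 lies past 2-fold, the other medians between -0.12 and 0.15.

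Among immediate early transcription factors, 12 of 22 lay below 0 and 3 were negative past 2-fold against 3.35% of all genes, with none positive past it. The median was -0.064. Egr1, a zinc finger factor induced by synaptic activity, and Klf4, a Krueppel-like factor, were both at -0.44, and Egr4, a relative of Egr1, was at -0.33. Jund stood at -0.27 and Klf10 at -0.24, within 2-fold. Fosl2, a Fos relative, was the highest at 0.29. Fos had spots at -0.020 and -0.061, Junb was at 0.00029 and Nr4a1 at 0.057, so these classical members lay near 0.

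At 2 h 19 of 25 such factors lay above 0 (49.7% of all genes did), with a median of 0.051. At 4 h it was 14 of 25 (49.8% of all genes), with 0.071, and at 6 h 12 of 25 (48.6%), with -0.0037. Egr1 and Egr4 were 2 of the 3 genes of the whole array that were negative past 2-fold at 1 h and positive past it at 2 h. Egr1 went from -0.44 to 0.31 and then to -0.0080 and -0.29. Egr4 went from -0.33 to 0.50, then 0.27 and -0.014, and its 1 h value fell short of 2-fold, at -0.29, once a running median of nearby spots was taken off. The third gene was Umod, the kidney protein uromodulin, from -0.54 to 0.45. In the opposite sense, 19 of 454 genes positive past 2-fold at 1 h were negative past it at 2 h. That was 4.19%, against 4.1% of all genes. The 3 genes that turned the other way were 1.1% of 273, against 2.29% of all genes positive past 2-fold at 2 h.

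Effectors and signal inhibitors of the immediate early set lay below 0 in 16 of 21 genes, with a median of -0.039. The lowest was Ccn1, a secreted matrix protein, at -0.56, with later values of -0.19, 0.26 and -0.23. The GTPase Gem had spots at -0.14 and -0.43, and the stress gene Gadd45b spots at -0.36 and -0.18. Dusp1, a phosphatase that switches off MAP kinases, was at -0.22, and Arc, the dendritic protein needed for lasting synaptic change, at -0.19. The kinase Sik1, at 0.37, was positive past 2-fold. At 2 h the list was evenly split, with 12 of 24 above 0 and a median of 0.00074. Of the 24 measured at 4 h, 17 lay above 0 (49.8% of all genes did), with Dusp1 at 0.47 and Arc at 0.52.

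Many promoters of these genes carry the core of the cAMP response element, the letters to which CREB binds. The core TGACG, read on both strands in the 250 bases before the start, was found in 12 of 18 transcription factors with a window (66.7%) and in 9 of 15 effectors (60.0%), against 19.8% of 27025 genes. Heat shock proteins and chaperones held it in 15 of 35 (42.9%). The full element TGACGTCA was found in 1 of the 18 factors and 2 of the 15 effectors, against 1.77% of genes. Of the 12 matched factors 7 lay below 0 and 5 above it, so matched genes lay on both sides. Of the 9 matched effectors 7 lay below 0, close to the share of the whole effector list, 16 of 21. Promoters of the lowest members with a match are shown 5′ to 3′ from RefSeq (GRCm38.p6), with the core in capitals as TGACG or, on the other strand, CGTCA.
Egr4, chr6:85513590-85513839 (- strand): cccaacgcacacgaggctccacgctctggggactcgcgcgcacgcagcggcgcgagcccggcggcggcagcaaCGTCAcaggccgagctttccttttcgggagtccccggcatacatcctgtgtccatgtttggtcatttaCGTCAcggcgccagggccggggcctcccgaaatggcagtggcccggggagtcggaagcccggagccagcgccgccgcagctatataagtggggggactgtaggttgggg
Klf4, chr4:55532476-55532725 (- strand): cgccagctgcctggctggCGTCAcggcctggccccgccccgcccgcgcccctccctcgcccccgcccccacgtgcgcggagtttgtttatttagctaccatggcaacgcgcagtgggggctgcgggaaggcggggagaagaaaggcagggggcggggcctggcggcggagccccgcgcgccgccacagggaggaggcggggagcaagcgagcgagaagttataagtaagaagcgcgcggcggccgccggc
Ccn1, chr3:145649986-145650235 (- strand): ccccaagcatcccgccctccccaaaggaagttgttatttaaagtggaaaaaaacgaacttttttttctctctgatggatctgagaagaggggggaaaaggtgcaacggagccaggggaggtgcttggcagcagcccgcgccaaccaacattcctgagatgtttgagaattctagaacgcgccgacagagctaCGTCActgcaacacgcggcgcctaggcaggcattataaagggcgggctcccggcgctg
In Egr4 the core was found at -177 to -173 and again at -109 to -105 from the start, in Klf4 at -232 to -228 and in Ccn1 at -58 to -54. A match is a description of letters and not of binding.

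The receptors that MK-801 acts on gave a mixed picture. Grin2a, an NMDA receptor subunit of mature synapses, was at 0.56 at 1 h, from 1 of its 2 spots. That spot was at -0.31, -0.36 and -0.33 at 2, 4 and 6 h, on the other side of 0 by more than 2-fold each time. The other spot of Grin2a had no ratio at 1 h and was at -0.069, -0.037 and 0.42 later. Grin2b was at -0.0035, Grin2c at -0.061 and Grin2d at -0.14. Grin1 and Grin3a had no value at 1 h. Gria1, the AMPA receptor subunit that moves into CA1 synapses during plasticity, was at -0.39, then -0.043, 0.33 and -0.18. Over 11 subunits of NMDA, AMPA, kainate and delta receptors, 8 lay below 0 and the median was -0.089.

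Single postsynaptic genes lay below 0. Nrgn, neurogranin, which holds calmodulin in spines, was at -0.49. The metabotropic receptor Grm8 was at -0.303 from spots at -0.091 and -0.51, and the scaffold protein PSD-95, Dlg4, at -0.28. Of 12 genes of metabotropic receptors and scaffold 8 lay below 0, with 2 negative past 2-fold (16.7% against 3.35% of all genes) and none positive. The median of this list, -0.046, turned above 0 once a running median of nearby spots was taken off. The GABA and glycine list was poorly measured. Of its 23 spots 47.8% read 0 at 1 h, against 20.2% of all named spots. At 2 h it was 13.0%, against 6.49%. The 9 measured genes of the list lay between -0.20 and 0.0996.

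Voltage-gated and potassium channels had the lowest share of members above 0 among the 40 lists, 23.3%. Oligodendrocyte and myelin markers (23.5%) and immediate early effectors (23.8%) had nearly the same share. Of 30 channels, 23 lay below 0, with a median of -0.094. Past 2-fold 5 were negative (16.7% against 3.35% of all genes) and 1 positive (3.33% against 5.12%). Cacna1b, the pore of the N-type calcium channel at nerve terminals, was at -0.55. Kcnj3, a G protein-gated potassium channel, was at -0.50 with spots at -0.25 and -0.74, and the sodium channel Scn1a at -0.46. The T-type calcium channel Cacna1g was at -0.31 with spots at 0.040 and -0.65. Kcna1, a potassium channel of axons, was at -0.3012 with spots at -0.32 and -0.28, so its mean only just passed 2-fold. Kcnj3, Cacna1g and Kcna1 each had 1 spot within 2-fold. Kcnc1, a potassium channel of fast-firing cells, was at 0.42.

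The channel list lay near 0 later, with medians of 0.025, -0.0056 and -0.015 and 16 of 31 above 0 at 2 h. Kcnj3 stood at 0.063 at 2 h and 0.29 at 4 h, and Kcna1 at 0.078 and 0.065. Cacna1b differed from these, at -0.64, -0.88 and -1.08, so its 1 spot lay below 0 by more than 2-fold on all 4 arrays.

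Synaptic vesicle genes lay below 0 in 15 of 23, with a median of -0.085. The calcium sensor Syt2 was at -0.34, the fusion ATPase Nsf at -0.26 and Syt5 at -0.22, while Sypl, a synaptophysin relative, was at 0.23. Cytoskeletal genes were split, 11 above and 12 below 0. The actin-severing protein Cfl1 was at -0.31 and Map1b, a microtubule protein of axons, at -0.25. Actb, beta actin, stood far from the rest at 0.78, with -0.0086, 0.12 and -0.41 later. Matrix and adhesion genes lay below 0 in 20 of 33, with the matrix protein Fbln2 at -0.79 and the basement membrane collagen Col4a2 at 0.42.

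Chaperones lay below 0 in 24 of 42, with a median of -0.023, and 3 of them were negative past 2-fold (7.14% against 3.35% of all genes). These were Hspa1b at -0.62 and 2 genes of the endoplasmic reticulum, the lectin chaperone Canx at -0.45 and Dnajb9 at -0.39. Hspa5, the chief Hsp70 of that compartment, was at -0.25 and the Hsp90 partner Fkbp4 at -0.23. Dnajb6, with spots at 0.065 and 0.59, was the 1 positive gene past 2-fold, at 0.33. At 2 h 29 of 42 lay above 0 and the median was 0.053.

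Several chaperones of the endoplasmic reticulum, though not all, share a promoter element through which ATF6 acts, the ER stress element. Its letters, CCAAT, 9 bases of any kind and CCACG, on either strand, were found before the start of 6 of 35 chaperones with a window (17.1%), against 0.13% of 27025 genes. Dnajb9 had a window and no match. At 1 h Canx, Hspa5, Calr (-0.16), Pdia6 (-0.13) and Dnajc3 (-0.12) lay below 0 and Hsp90b1 lay at 0.055. At 2 h 5 of the 6 lay above 0, with Canx at -0.11, and at 4 h all 6 did, from 0.067 for Hsp90b1 to 0.23 for Canx. Of all 42 chaperones 29 lay above 0 at 2 h and 21 at 4 h, against 49.7% and 49.8% of all genes. Calr, Pdia6, Dnajc3 and Hsp90b1 are named for the match, after their values were seen. Promoters of the lowest 2 are shown 5′ to 3′ from RefSeq (GRCm38.p6), with the element in capitals, at -145 to -127 in Canx and at -65 to -47 in Hspa5.
Canx, chr11:50325674-50325923 (- strand): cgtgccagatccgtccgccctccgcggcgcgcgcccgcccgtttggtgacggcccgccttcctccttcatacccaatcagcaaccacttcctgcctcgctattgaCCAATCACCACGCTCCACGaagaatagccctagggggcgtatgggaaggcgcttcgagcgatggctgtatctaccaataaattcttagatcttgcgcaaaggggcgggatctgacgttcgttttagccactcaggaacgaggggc
Hspa5, chr2:34771840-34772089 (+ strand): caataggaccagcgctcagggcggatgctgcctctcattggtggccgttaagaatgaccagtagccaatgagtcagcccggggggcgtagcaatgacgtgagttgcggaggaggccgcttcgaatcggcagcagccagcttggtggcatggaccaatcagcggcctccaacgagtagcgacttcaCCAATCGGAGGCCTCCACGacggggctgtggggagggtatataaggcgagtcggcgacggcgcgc
The first letters of this element are themselves a CCAAT box, which 37.5% of genes hold in such a window.

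**Figure D5:**
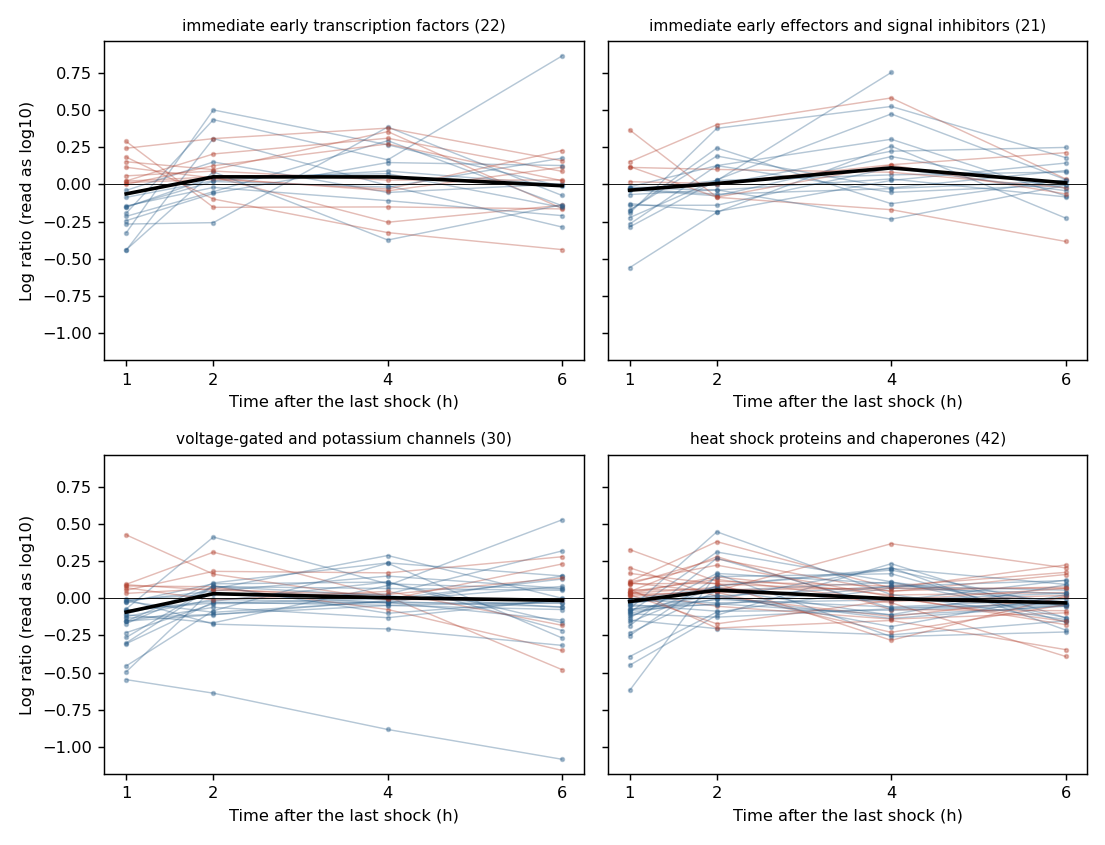
Log ratio (read as log10) against time after the last shock (h) for the genes of 4 lists measured at 1 h, coloured by their sign at 1 h, with the median of those genes in black. The black line starts below 0 at 1 h in each panel and lies above 0 at 2 h.

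RNA-binding proteins included several negative values. Of 40 splicing and RNA-binding factors 23 lay below 0, and 6 were negative past 2-fold (15.0% against 3.35% of all genes) with none positive (5.12% of all genes). Fmr1, the translational regulator lost in fragile X syndrome, was at -0.63 and stayed below 0 at -0.30, -0.57 and -0.072. Celf2 was at -0.58, the splicing factor Sf3b1 at -0.38, Hnrnpl at -0.36, the neuronal Hu protein Elavl3 at -0.34 and Hnrnpu at -0.31. Hnrnpl was at 0.86 at 4 h. Each of the 6 rested on 1 spot.

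Genes of protein synthesis lay below 0 by small amounts. Of 56 mitochondrial ribosomal proteins 41 lay below 0, with a median of -0.060, and of 45 cytosolic ones 32, with -0.069. At 2 h the mitochondrial list lay below 0 in 47 of 61, with a lower median of -0.087. Its medians at 4 and 6 h were -0.017 and 0.017. Single members were close to 0. Among the mitochondrial ones 1 lay past 2-fold in each direction (1.79% each), Mrpl30 at -0.35 and Mrps24 at 0.56. Among the cytosolic ones 2 were negative past it (4.44%), Rpl39 at -0.43 and Rpl22 at -0.32, and none positive. The shares of all genes were 3.35% negative and 5.12% positive. Mrps24 lay at 0.56, 0.58 and 0.52 at the later times. For the cytosolic list 31.8% of 66 spots read 0 at 1 h, against 20.2% of all named spots. The list median was 0 with these zeros kept, and later medians were -0.083, 0.074 and 0.067. Translation factors had a median of -0.0091, with the elongation factor kinase Eef2k at -0.58.

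Energy metabolism gave no single direction. Of 52 respiratory chain and ATP synthase subunits 33 lay below 0, with a median of -0.039. Cox8b was at 0.58, Ndufb4 at 0.45 and Uqcrb at 0.38. Atp5j was at -0.80, but from spots at -1.71 and 0.11, and Atp5k at -0.31. Glycolytic enzymes had a median of -0.00071 with none past 2-fold. Antioxidant and peroxisomal enzymes, apart from Cat, lay between -0.23 and 0.28, and 19 of 31 were above 0.

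Cholesterol synthesis had the lowest median of the 40 lists, -0.12, with 8 of 13 enzymes below 0. Squalene epoxidase, Sqle, was the 1 enzyme past 2-fold, at -0.33. Sc5d and Msmo1 were both at -0.28, Mvd at -0.27, Mvk at -0.22 from spots at -0.42 and -0.026, and Idi1 at -0.20. These enzymes act both early and late in the pathway. At 2, 4 and 6 h the list medians were 0.017, -0.014 and 0.068.

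Signalling genes were mostly near 0. Kinases and phosphatases were split 14 to 14, with glycogen synthase kinase Gsk3b at -0.49. Among CREB, ATF and NF-kB factors Nfkbib was the 1 gene past 2-fold, and the median was -0.036. Growth factor genes had a median of 0.017, with the BDNF receptor Ntrk2 at 0.39 and then at -0.37, -0.31 and -0.67. Of 35 cytokine genes 19 lay above 0. The chemokines Ccl4 (0.50, from spots at 0.67, 0.030 and 0.80), Cxcl2 (0.47) and Ccl3 (0.32) were positive past 2-fold, 8.57% of the list against 5.12% of all genes, and Il15 was at -0.54.

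Stress and clock genes showed single outlying members. Of 16 glucocorticoid response genes 9 lay above 0, with a median of 0.017. The leucine zipper gene Tsc22d3 was at 0.304 and the glucocorticoid receptor Nr3c1 at 0.28, while Ddit4 was at -0.25. Apoptosis regulators had a median of -0.012, with the caspase activator Apaf1 at 0.38. Clock genes lay below 0 in 8 of 13, with the nuclear receptor Rora at -1.07, Arntl at 0.32 and the clock kinase Csnk1d at 0.41. Chromatin genes had a median of -0.023, with the DNA-binding protein Hmgb2 at 0.78 and the remodelling ATPase Smarca2 at -0.39, and proteasome subunits of -0.0068, with Psmb3 at 0.31.

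Markers of the cell types a CA1 sample can hold were read as well. Of 9 CA1 pyramidal markers 5 lay above 0, with Wfs1 at 0.32 and Hpca at -0.44, so the 2 markers past 2-fold lay on opposite sides. Markers of CA3 and CA2 lay below 0 in 8 of 12, with a median of -0.103 and Nectin3 at -0.44 from spots at -0.23, -0.26, -0.0040 and -1.28. This list was not low at 1 h alone. It lay below 0 in 9 of 12 at 2, 4 and 6 h, with medians of -0.14, -0.12 and -0.12. The lowest Nectin3 spot was at -1.33, -1.28 and -0.21 at those times. Dentate markers lay above 0 in 4 of 5, with a median of 0.15. Interneuron markers lay below 0 in 13 of 18, with a median of -0.080, Cck at -0.27, Npy at -0.22 and Lhx6 at 0.29, none past 2-fold.

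Among glia and vessels, oligodendrocyte markers lay below 0 in 13 of 17, with a median of -0.076 and the myelin tight junction gene Cldn11 at -0.36. Astrocyte markers had a median of -0.026, with the water channel Aqp4 at -0.32. Microglial markers were split 11 to 11, with Fcgr2b at -1.04 from spots at -0.059 and -2.01. Endothelial and mural markers had a median of -0.069, with Cldn5 at -0.46.

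Lists of tissues at the edge of the hippocampus had medians above 0. The choroid plexus list had a median of 0.51, with 8 of 10 measured genes above 0, all 8 of them positive past 2-fold, and 4 further genes of that list were not measured. Later medians were -0.013, -0.017 and -0.16. Kcne2 was at 0.71, Sostdc1 at 0.66 and Folr1 at 0.49. Meningeal and fibroblast markers had a median of 0.057 with 3 of 16 positive past 2-fold (18.8% against 5.12% of all genes), Igf2 at 0.54, Igfbp2 at 0.45 and Ogn at 0.32, and 2 of these 3 are also on the choroid plexus list. Ependymal markers, from -0.030 to 0.14, lay near 0. Blood markers had a median of 0.071, with none positive past 2-fold and 2 of 12 negative past it (16.7% against 3.35% of all genes), Car1 at -0.42 and S100a8 at -0.33. The part of these tissues in the other values was not tested.

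Genes that brain tissue hardly uses also lay above 0. Of 127 genes for keratins, other epidermal proteins and olfactory receptors 89 lay above 0 (70.1% against 50.4% of all genes), 14 were positive past 2-fold (11.0% against 5.12%) and none negative. The median was 0.084. Krtap14 was at 0.99, Krt14 at 0.80, Krtap8-1 at 0.79, Olfr888 at 0.73, and Krt35 and Krt6b at 0.41. Members of these families are near copies of each other, so a spot may bind several. The median was 0.032, 0.022 and -0.057 at 2, 4 and 6 h. At 1 h 22.8% of the list's spots read 0, close to the 20.2% of all named spots. At 2 h it was 3.59%, against 6.49% of all named spots. The part of unmeasured spots and of the dye in these values was not tested.

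The genes past 2-fold at 1 h were then followed to the later arrays, which came from other RNA. Over all genes with both values, 56.4% had the same sign at 1 and 2 h, 49.0% at 1 and 4 h and 50.6% at 1 and 6 h. Across 8838 genes Pearson's r between 1 and 2 h was 0.17 and Spearman's rho 0.17, and between 1 and 4 h r was -0.013 over 8916 genes. Genes are not independent, and the arrays share the dye orientation and the spots, so these are descriptions.

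Negative genes of 1 h were more often negative at 2 h than the whole. Of 273 measured, 187 (68.5%) lay below 0 against 50.8% of all genes, and 38 (13.9%) were negative past 2-fold against 4.1%. At 4 h 42.7% of them lay below 0 against 52.8%, and at 6 h 61.4% against 54.9%. Positive genes lay above 0 in 57.3% at 2 h against 49.2% of all genes, 55.5% at 4 h against 47.2% and 44.2% at 6 h against 45.1%. Of 443 positive genes measured at 6 h, 92 (20.8%) were negative past 2-fold, against 12.6% of all genes. Most of the 1 h genes lay within 2-fold at every later time, 262 of 426 positive ones (61.5%) and 152 of 257 negative ones (59.1%), against 75.6% of all genes.

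Some genes lay past 2-fold the same way at 1 h and at 2 or more later times, 10 of the 469 positive and 28 of the 307 negative. The share of all genes that did so at 2 or more later times was not counted, so these counts stand without a background. At single times 2.44%, 2.49% and 10.2% of all genes were positive past 2-fold at 2, 4 and 6 h, and 4.14%, 4.58% and 11.7% negative. The highest were Ccdc70 (0.61), the X-linked gene Xlr3a (0.58), 3110082I17Rik (0.58), Mrps24 (0.56), the RNA granule protein Lsm14a (0.51) and Igh-VS107 (0.41). 3110082I17Rik stood at 0.51, 0.61 and 0.56 later. The lowest were Xist, Map3k7, Slc10a2, Fcgr2b, the channel protein Panx1 (-1.01) and the synaptic scaffold gene Lin7c (-0.87). Fcgr2b and Lin7c had a second spot near 0, at -0.059 and -0.042, beside spots at -2.01 and -1.69. The spot behind Xist was at -1.44 and -0.68 at 2 and 6 h, while its other spot, not measured at 1 h, was at 0.018, 0.15 and 0.054 at 2, 4 and 6 h. Conditioning, dye and spot are shared by all 4 arrays and cannot be told apart in these genes.

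The genes that turned from positive to negative past 2-fold between 1 and 2 h were led by H1f4 (0.86 to -0.36), Esco2, which joins sister chromatids (0.78 to -0.61), Dppa4, a gene of pluripotent cells (0.75 to -0.40) and the transcription factor gene Tcf20 (0.68 to -0.43). Each rested on 1 spot at 1 h. Such turns made up 4.19% of the positive genes measured at 2 h, against 4.1% of all genes negative past 2-fold there.

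Values on the array moved with spot number. Over 37 blocks of 500 spot numbers with at least 100 measured spots, the block median ran from -0.10 to 0.059. The share positive past 2-fold ran from 0.851% to 13.6%, the share negative from 0.726% to 11.5% and the share reading 0 from 8.21% to 47.0%. After a running median over 51 spots was subtracted, 392 genes were positive and 291 negative past 2-fold.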

How the data were processed

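RNA of the MK and MK C+S groups was hybridised to 1 array with 2 dyes per time, per the labels. The deposited table holds 1 log ratio per spot, read here as log10 from their range of -3.10 to 1.58 at 1 h. That base and the direction are assumptions, and the sources used here do not give the scanner, the background correction or how the authors normalized. Intensities were not used. The median of the deposited column without its zeros, 0.0055, was subtracted. Of the 16281 spots, 13738 were named with 1 gene, 52 with several and 2491 with none by a platform annotation that can be old. Gene IDs of 13694 matched the RefSeq table (GRCm38.p6).

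Counts past 2-fold and list medians were computed with Python 3.11.15, numpy 2.4.6, pandas 2.3.3 and scipy 1.17.1, with no test. The scripts were checked on simulated data. Members, lists and alternatives were chosen with earlier results of these data known. Named were the 12 highest and 12 lowest genes, genes with all spots past 2-fold (up to 10 each way), the 6 highest and 6 lowest past 2-fold at 2 or more later times as well, the 4 largest each way that turned sides at 2 h, up to 6 per list, and Fos, Egr1, Arc, Junb, Nr4a1, the NMDA receptor subunits and Kcne2, Sostdc1 and Folr1. Alternatives covered threshold, centring, zeros, spot summary, filters, log base and spot position.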

Additional observations from a re-analysis of the deposited data

Results flagged for a closer look

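Among the genes named here, some lay past 2-fold on one side of 0 at 1 h and past 2-fold on the other side at a later time. With 1 array at each time, none of these differences was tested, and all values are log ratios read as log10.

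Against 2 h, 4 genes of the nucleus stood on the positive side at 1 h. H1f4, a linker histone, was at 0.86 against -0.36, Esco2 at 0.78 against -0.61, Dppa4 at 0.75 against -0.40 and Tcf20 at 0.68 against -0.43. The chemokine Cxcl2 was at 0.47 against -0.32, but the spot behind its 1 h value was at -0.019 at 2 h, and the -0.32 includes a spot at -0.63 that had no ratio at 1 h. The BDNF receptor Ntrk2 was at 0.39 against -0.37. On the negative side at 1 h were the activity-regulated factors Egr1, at -0.44 against 0.31, and Egr4, at -0.33 against 0.50, and the kidney gene Umod, at -0.54 against 0.45.

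Against 4 h, 14 of 458 positive genes of the whole array (3.06%) were negative past 2-fold, against 4.74% of all genes. Of 281 negative genes 21 (7.47%) were positive past it, against 2.22% of all genes. Among the named genes Cat was at 1.57 against -1.92, H1f4 at 0.86 against -1.12 and the repair enzyme Mpg at 0.89 against -0.45. Ntrk2 was at 0.39 against -0.31 and the respiratory chain gene Uqcrb at 0.38 against -0.35. Negative at 1 h were the small GTPase Arf5 (-0.65 against 0.42), hippocalcin, Hpca (-0.44 against 0.40), the AMPA receptor gene Gria1 (-0.39 against 0.33), the RNA-binding factor Hnrnpl (-0.36 against 0.86), the astrocyte water channel Aqp4 (-0.32 against 0.32), the ribosomal gene Rpl22 (-0.32 against 0.32) and the ATP synthase gene Atp5k (-0.31 against 0.39).

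Against 6 h, the named genes of this kind were positive at 1 h. Over the whole array 21 of 280 negative genes (7.5%) were positive past 2-fold at 6 h, against 6.38% of all genes. Of 443 positive genes 92 (20.8%) were negative past it, against 12.6% of all genes. Krtap14 was at 0.99 against -0.70, Scn9a at 0.90 against -0.55, Mpg at 0.89 against -0.70, Actb at 0.78 against -0.41 and Cox8b at 0.58 against -0.49. Lbp, a lipopolysaccharide-binding protein on the choroid plexus list, was at 0.54 against -0.33. Krt35 was at 0.41 against -0.71, Ntrk2 at 0.39 against -0.67, Inppl1 at 0.37 against -0.61 and Ogn at 0.32 against -0.32. The 6 h array had the widest spread, with 21.9% of its genes past 2-fold.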

How the results depend on the processing

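The counts past 2-fold (469 positive, 307 negative, 60.4% positive) depended on the threshold and the log base. At 1.5-fold they were 1213 and 1086 (52.8% positive), and at 3-fold 130 and 96. Read as log2 they were 3 and 19 (13.6% positive), and as natural logs 30 and 39 (43.5%). Among genes with 2 or more spots they were 30 and 46 (39.5%), and over each named spot the positive share was 56.0%. With no centring, zeros kept, the median of spots, genes on all 4 arrays or a running median of neighbouring spots removed, both counts stayed within 1.5 times. The running median took 16 of 281 named genes below 2-fold and 4 past it, no centring 3 and 1, and the median of spots 1. Of 40 list medians, 15 turned sign or reached 0 under at least 1 of 6 settings. With zeros kept, the median of immediate early transcription factors was 0. No paired analysis was possible because each time had 1 array and a replicate number was only a name. Without intensities, no limit from signal over background could be given.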
